A study of Drosophila melanogaster with 8 samples.

Results

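The baseline transcriptome of the adult male thorax was described from the 4 control libraries among the 8 libraries of the series. The labels, which title them wild type, give their genotype as tub-Gal80ts; dMef2-GAL4 crossed to w[1118]. These flies carried the muscle driver dMef2-GAL4 and a ubiquitously expressed, temperature-sensitive GAL80 that silences it in the cold, but no UAS target for the driver. Crosses were held at 18 °C. Males stayed at 18 °C for 3 to 4 days after collection and at 29 °C for 4 days by the labels (the study's methods give a somewhat longer stay at 18 °C for this driver), and RNA was taken from 5 to 6 thoraces per library. For other assays the study's methods describe thoraces freed of wings, head, abdomen and gut. The other 4 libraries carried UAS-REPTOR[ACT] in the same driver background and were not analysed here. The labels do not say whether the 4 replicates came from separate cultures, so the spread between them may be technical.

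The fly thorax is filled by the indirect flight muscles, fibrillar muscles whose contraction is triggered by stretch and whose fibres are packed with large mitochondria that oxidise carbohydrate. Around them lie the tubular muscles of the legs and the jump, the thoracic nerve cord, fat body, haemocytes, tracheae and the thoracic cuticle with its epidermis. In RNA from such a mixture, fewer cells of a type and less RNA per cell cannot be told apart.

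Replicates 1 to 4 held 29.1, 50.03, 26.8 and 37.5 M reads (M, 1e6). Levels are given as counts per 1e6 reads of a library (CPM), and levels of different genes are compared as reads per kilobase of exon per 1e6 reads (RPKM). A count of 0 allows up to 3 reads, which was 0.0600 to 0.11 CPM, for counting error only. Of 17562 genes in the table, 14105 had at least 1 read, 8964 reached a mean of 1 CPM (8716 of them protein-coding) and 78 reached 1000 CPM. REPTOR, the gene varied elsewhere in the series, was at 113, 126, 90.8 and 89.1 CPM in replicates 1 to 4 (FBgn0039209, chromosome 3R, 24557368 to 24582864, Release 6 assembly, as all coordinates here).

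Replicate 1 stood apart in composition. Its mitochondrial genome took 30.4% of the reads, against 38.7 to 42.2% in replicates 2 to 4, and on the scale of all reads 79.3% of 5915 protein-coding genes at 10 CPM or more were highest in it. The median gene lay 0.16 above the mean of the 4 libraries in replicate 1 on the log2 scale, against −0.10 to 0.0006 in the others. With only the reads of nuclear genes as the total these medians came to −0.029 to 0.022. Replicate 1 also held reads of eye genes that replicates 2 to 4 almost lacked. Results are therefore given with and without it where it moves them, and shares are also given of the reads of nuclear genes.

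The mitochondrial genome supplied 37.6% ± 5.03 of all reads (SD, n = 4), or 40.0% without replicate 1. The RNA was captured by oligo-dT, so levels of ribosomal and transfer RNA describe the captured reads and not the cell. The gene with the most reads was mt:lrRNA, the large ribosomal RNA of the mitochondrion (FBgn0013686, mitochondrial genome, 12735 to 14058, minus strand). It stood at 146910, 181111, 181237 and 202798 CPM in replicates 1 to 4. Next came mt:CoI, the largest catalytic subunit of cytochrome c oxidase (FBgn0013674, 1474 to 3009, plus strand), at 83525, 100848, 104622 and 103008 CPM. For both, replicate 1 was the lowest library and replicates 2 to 4 lay close together. mt:CoIII, another subunit of the same oxidase, was the steadiest of the abundant mitochondrial RNAs at 36372 ± 842 CPM, with replicate 1 only slightly below the others.

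Per kilobase the mitochondrial mRNAs were far from equal. mt:CoI stood at 63803 ± 6363 RPKM, mt:CoIII at 46099 ± 1067, mt:Cyt-b, the cytochrome b of complex III, at 22018 ± 7187, mt:CoII at 14590 ± 1542 and mt:ATPase6, of the ATP synthase, at 14104 ± 3373. The complex I mRNAs mt:ND1, mt:ND5 and mt:ND4 followed at 8004 ± 1946, 3546 ± 1599 and 3089 ± 1169 RPKM. mt:ND2, mt:ND6 and mt:ND4L, of the same complex, were at 96.4 ± 47.6, 57.4 ± 21.6 and 46.3 ± 8.22 RPKM. The oxidase mRNAs mt:CoI and mt:CoIII headed the order, and complex I mRNAs stood at both its middle and its foot. Together mitochondrial mRNAs took 19.8% ± 2.75 of all reads, mitochondrial ribosomal RNA 17.8% ± 2.34 and the 22 mitochondrial tRNAs 0.00179% ± 0.00103. Genes read from the plus strand held 47.9% ± 1.29 of the mitochondrial reads.

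All 13 mitochondrial mRNAs were lowest in replicate 1, but by very different amounts. The complex I mRNA mt:ND3 stood at 47.1, 1178, 855 and 1293 CPM in replicates 1 to 4. mt:srRNA, the small mitochondrial ribosomal RNA, stood at 21.7, 657, 408 and 575 CPM. The mean of replicates 2 to 4 was 23.6 times the value of replicate 1 for mt:ND3 and 25.2 times for mt:srRNA, against 1.28 times for mt:lrRNA, 1.23 times for mt:CoI and 1.03 times for mt:CoIII. mt:Cyt-b (2.23 times), mt:ND5 (2.40 times) and mt:ND4 (2.55 times) lay between. These ratios were not equal, so the mitochondrial RNAs differed in relative level as well as in total.

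The 30 genes with the highest mean CPM comprised 9 mitochondrial and 21 nuclear genes. Myofilin, Mf, a protein of the thick filament, was the highest nuclear gene (FBgn0038294, 3R, 15170625 to 15181510) at 8787, 7828, 7693 and 7436 CPM. Aldolase, Ald1 (FBgn0000064, 3R, 26254069 to 26261591), followed at 6193, 5645, 5677 and 5409 CPM. The muscle myosin heavy chain, Mhc (FBgn0264695, 2L, 16766566 to 16788766), came next at 5896, 5617, 5417 and 5421 CPM. All 3 were highest in replicate 1, as were 18 of the 21 nuclear genes, and the values of replicates 2 to 4 lay within a narrow band.

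The calcium pump of the sarcoplasmic reticulum, SERCA, stood at 5167 ± 576 CPM (16.0% of its exon bases also belong to other genes) and the ADP/ATP translocase sesB at 4560 ± 354 CPM. Among enzymes of the TCA cycle, the mitochondrial aconitase mAcon1 was at 4167 ± 333 CPM and the oxoglutarate dehydrogenase subunit Ogdh at 3970 ± 224 CPM. The catalytic ATP synthase subunit ATPsynbeta was at 3538 ± 219 CPM. The giant elastic proteins of the sarcomere, sls (titin-like) and bt (projectin), stood at 3113 ± 197 and 2890 ± 215 CPM, but their exons are so long that they fell to 52.8 ± 3.34 and 103 ± 7.68 RPKM.

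Outside muscle structure and energy supply, the first 30 held apolpp, the precursor of the fat body lipoprotein apolipophorin (3552 ± 498 CPM), and the kinase gene Lk6 (3630 ± 397 CPM). They also held eEF1alpha1 (2851 ± 148 CPM) and eEF2 (2240 ± 144 CPM) of translation elongation, Oda, the antizyme of ornithine decarboxylase (2268 ± 117 CPM), and Npl4, a partner of the TER94 unfoldase (2216 ± 170 CPM). CG43897, CG16826 and CG9297, for which the annotation used here gives no name beyond the identifier, stood at 4841 ± 571, 4747 ± 429 and 3366 ± 321 CPM. The coefficient of variation over the 4 libraries was 3.64 to 14.01% for the 21 nuclear genes and 2.31 to 45.1% for the 9 mitochondrial ones. Leaving out replicate 1 gave the same 30 genes.

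**Figure D1:**
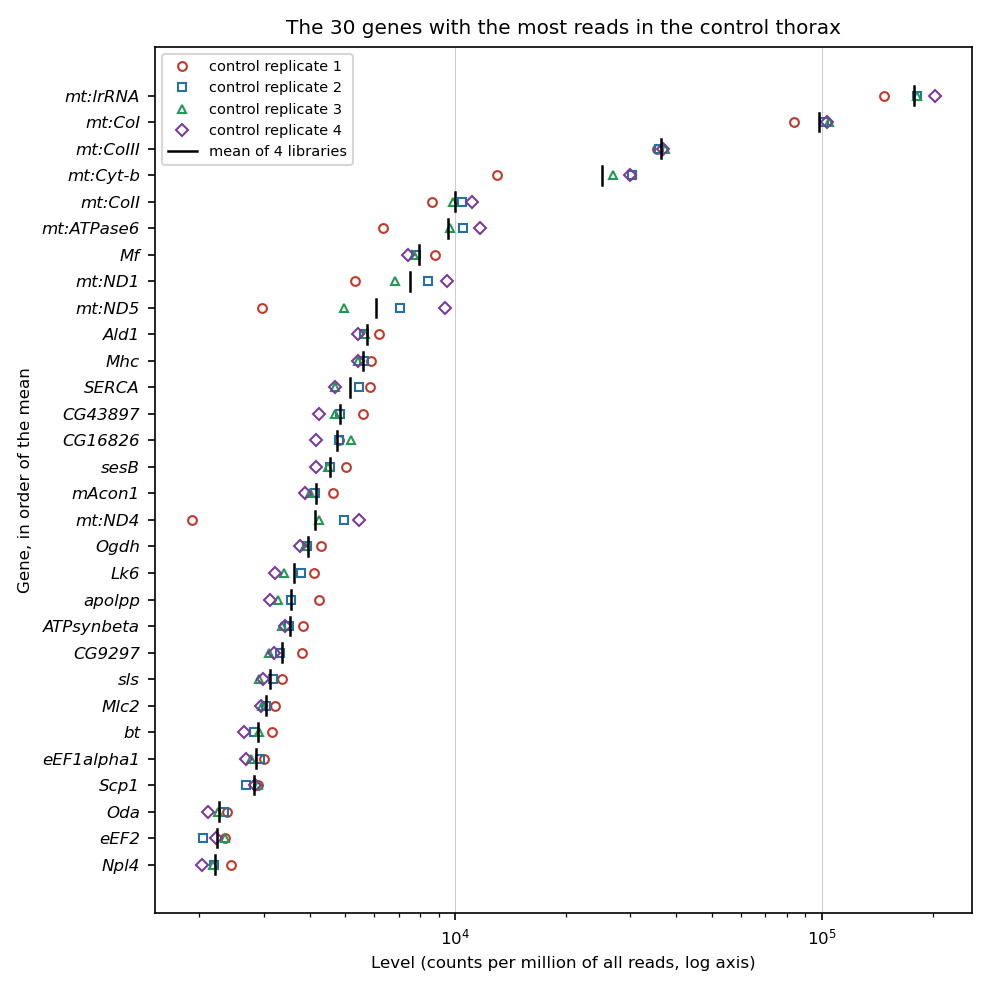
Level of each of the 30 genes with the highest mean, in CPM of all reads on a log axis, with a symbol for each of the 4 control libraries and a vertical bar at their mean. mt:lrRNA leads at a mean of 178014 CPM, and replicate 1 (red circles) lies lowest for all 9 mitochondrial genes but highest for 18 of 21 nuclear genes.

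Reads were concentrated in few genes. The 56 most abundant genes held 50% of all reads over the mean of the libraries (110, 46, 50 and 32 genes in replicates 1 to 4), whereas it took 398 nuclear genes to hold 50% of the nuclear reads (389 to 405). The 10 most abundant genes held 38.4% of all reads, and the 10 most abundant nuclear genes 8.07% of the nuclear reads. The plot of the 30 genes shows the same: it falls steeply over the first mitochondrial RNAs and then gently over the nuclear genes.

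Per kilobase of exon, small genes moved to the front of the nuclear order. whe (X, 21402339 to 21402772) was first at 3423, 4314, 4419 and 4340 RPKM in replicates 1 to 4, and CG16826 second at 3804 ± 344 RPKM. lcs, a near neighbour of whe (X, 21396727 to 21397316), followed at 2968 ± 176 RPKM. The calcium-buffering protein Scp1 (2308 ± 84.1), sesB (2273 ± 176), the neuropeptide-like precursor Nplp2 (2184 ± 249) and the complex I subunit ND-MLRQ (1819 ± 98.3) came next. whe was lowest in replicate 1 and lcs lowest there too, opposite to most nuclear genes. Of the 30 nuclear genes highest per kilobase, 9 were also among the 30 highest by CPM and 18 had under 1000 bases of exon. The whe and lcs genes and Nplp2 were named after their values were seen.

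Genes were then summed by function. Muscle structure led the nuclear lists. The 37 genes of sarcomere and myofibril held 7.37% ± 0.159 of the nuclear reads (4.59% ± 0.276 of all reads), and 36 of them reached 1 CPM. After Mf, Mhc, sls, Mlc2 (the regulatory light chain of myosin, 3048 ± 121 CPM) and bt came the kinase-like Strn-Mlck at 1994 ± 162 CPM. Troponin T, up, stood at 1915, 1827, 1832 and 1844 CPM and Zasp52, of the Z-disc, at 1851 ± 251 CPM. Calcium handling and excitation added 2.41% ± 0.0844 of the nuclear reads. Besides SERCA and Scp1 it held the sodium pump subunit Atpalpha (1440 ± 228 CPM), calmodulin, Cam (654 ± 111 CPM), the ryanodine receptor RyR (647 ± 29.6 CPM) and junctophilin, jp (537 ± 52.5 CPM).

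Together 8 lists of nuclear energy genes, from glycolysis to the ATP synthase, held 12.52% ± 0.0899 of the nuclear reads in 151 genes, and the values of replicates 1 to 4 were 12.49, 12.41, 12.58 and 12.61%. These shares depended on genes whose exons overlap other genes. Such genes held 25.8% of all reads and were left out of both the lists and the total. Any shared base dropped the whole gene: mAcon1 shared 12 of 3103 bases, Ald1 8.87% and Ogdh 6.68%. The falls below therefore do not measure the reads that lie in shared bases. Glycolysis then went from 1.25% of all reads to 0.637% of the reads left. The TCA cycle went from 2.05 to 0.989% in the same way, and nuclear oxidative phosphorylation from 3.49 to 2.72%. The sarcomere stood at 4.59% before and 4.84% after, on the smaller total. The TCA cycle with pyruvate entry took 3.28, 3.28, 3.29 and 3.29%. The SD of this share over the 4 libraries was 0.00533. Its 29 genes all reached 1 CPM, with SdhA (1550 ± 144 CPM) and Idh3a (840 ± 121 CPM) after mAcon1 and Ogdh, then the citrate synthase kdn (785 ± 101 CPM) and the succinyl-CoA ligase subunit ScsbetaA (760 ± 18.4 CPM).

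Glycolysis, in 13 genes, held 2.01% ± 0.0319 of the nuclear reads. Ald1 alone made up much of it, followed by enolase, Eno (1532 ± 102 CPM), Gapdh1 (1351 ± 110 CPM), pyruvate kinase, PyK (1125 ± 50.9 CPM), Pgi (605 ± 39.1 CPM) and Hex-A (500 ± 53.7 CPM). The nuclear subunits of oxidative phosphorylation, in 4 lists of 85 genes, held 5.60% ± 0.0851: the ATP synthase 1.99%, complex I 1.76%, complex III 1.04% and cytochrome c with complex IV 0.813%. Mitochondrial carriers with porin, also among the 8 lists, held 1.13% ± 0.00980. The highest member of each oxidative phosphorylation list was ATPsynbeta, ND-51 (1441 ± 82.5 CPM), the Rieske protein RFeSP (1210 ± 117 CPM) and COX4 (1024 ± 90.6 CPM). The phosphagen and glycerophosphate shuttle list held 0.496% ± 0.0151. Its arginine kinase Argk1, which buffers ATP in insect muscle, stood at 2268, 1932, 1984 and 1795 CPM.

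Fatty acid oxidation and lipid handling held 1.55% ± 0.142 of the nuclear reads, led by apolpp, the desaturase Desat1 (1386 ± 219 CPM), the fatty acid synthase FASN1 (979 ± 434 CPM) and the acetyl-CoA carboxylase ACC (501 ± 135 CPM). Trehalose and glycogen metabolism held 0.948% ± 0.0296, with the glycogen-targeting subunit Gbs-76A at 1359 ± 83.4 CPM and glycogen phosphorylase, GlyP, at 1186 ± 124 CPM. The trehalose synthase Tps1, the trehalose transporter Tret1-1 and trehalase, Treh, stood at 463 ± 59.2, 402 ± 52.4 and 364 ± 36.5 CPM. The lipid list was the wider in spread: its share was 1.57, 1.74, 1.40 and 1.501% in replicates 1 to 4, highest in replicate 2 and lowest in replicate 3.

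Among single lists of nuclear genes, cytosolic ribosomal proteins came next after sarcomere and myofibril. The 4 oxidative phosphorylation lists summed to more (5.60%), as did the 8 energy lists that include them (12.52%). Cytosolic ribosomal proteins held 5.06% ± 0.289 of the nuclear reads in 93 genes, of which 80 stood at 100 CPM or more and 9 under 1 CPM. RpL5 (1009 ± 65.5 CPM), RpS3A (837 ± 28.3 CPM) and RpL3 (793 ± 26.9 CPM) were the highest. Translation factors added 2.11% ± 0.0551, with the poly(A)-binding protein pAbp at 2142 ± 257 CPM. The 73 mitochondrial ribosomal proteins held only 0.256% ± 0.0152, and the proteasome with the ubiquitin genes 0.339% ± 0.0218.

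Lists outside muscle and metabolism were small. Cytochrome P450 genes held 0.816% ± 0.191 of the nuclear reads, largely through Cyp4g1, which makes cuticular hydrocarbons. Heat shock proteins and chaperones held 0.795% ± 0.164, antioxidant and glutathione enzymes 0.750% ± 0.0456 with GstD1 (725 ± 120 CPM) and the ferritin subunits Fer1HCH and Fer2LCH (705 ± 72.2 and 601 ± 85.2 CPM). Immune effectors held 0.629% ± 0.0560, led by the transferrin Tsf1 at 1536 ± 261 CPM. Tubulins with the rest of the non-muscle cytoskeleton held 0.746% ± 0.0140 and the vacuolar ATPase 0.666% ± 0.0234. Clock genes (0.280%), odorant and pheromone binding proteins (0.271%), muscle transcription and splicing regulators (0.269%), insulin and TOR genes (0.199%), digestive enzymes (0.166%) and storage and yolk proteins (0.0452%) were smaller still. Of 131 cuticle and chitin genes, which held 0.0619%, only 18 reached 1 CPM. Genes in none of the 34 lists held 61.6% of the nuclear reads.

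**Figure D2:**
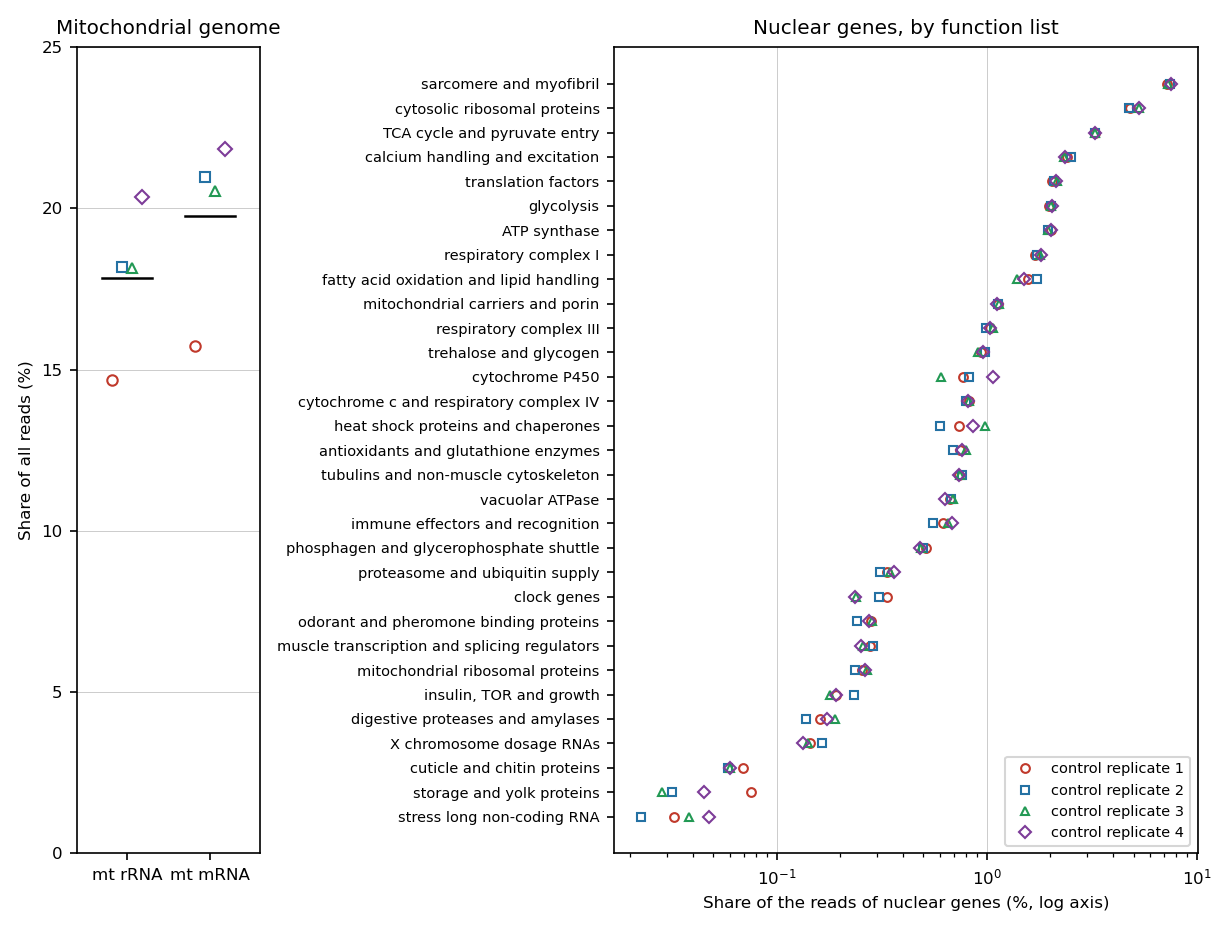
Left, share of all reads (%) taken by mitochondrial ribosomal RNA and mRNA, with a symbol per control library and a bar at the mean. Right, share of the reads of nuclear genes (%, log axis) in each function list, with the same symbols. The 4 symbols almost coincide for the TCA cycle (3.28%) and lie apart for cytochrome P450 (0.605 to 1.07%).

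Among lncRNAs, lncRNA:CR31781 (2L) was the highest at 2011 ± 154 CPM and lncRNA:CR42862 stood at 1429 ± 203 CPM. The dosage compensation RNA lncRNA:roX1, which coats the male X chromosome, stood at 985, 985, 838 and 749 CPM. Its partner lncRNA:roX2 was far lower at 21.8, 18.3, 24.1 and 22.6 CPM. The stress RNA lncRNA:Hsromega stood at 227, 137, 234 and 275 CPM, with replicate 2 the lowest. Both lncRNAs named first were chosen after their values were seen. Genes annotated as ncRNA held 0.654% ± 0.0446 of all reads.

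Levels also differed by chromosome. Over protein-coding genes at 1 CPM or more, the median level was 8.08 to 8.74 RPKM on the 4 large autosome arms (means of the 4 libraries) and 7.51 ± 0.617 RPKM on the X. The ratio of the X to the autosomes was 0.894, 0.911, 0.893 and 0.892 in replicates 1 to 4. On the small chromosome 4 the median was 18.3 ± 1.23 RPKM and 76 of 79 protein-coding genes (96.2%) reached 1 CPM, against 59.7 to 66.0% elsewhere on the X and autosomes. apolpp, ATPsynbeta and bt of the first 30 genes lie there, with RpS3A and the complex I subunit ND-49. None of 23 protein-coding genes of the Y reached 1 CPM.

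Many muscle and metabolic proteins are encoded by several paralogous genes. The share of each member in the summed RPKM of its family was taken in 39 families of 103 genes. A single member held at least 99% in 20 families, 95 to 99% in 3, 80 to 95% in 6 and under 80% in 10. The COX7A family, among the 3, was listed without COX7AL2. That gene stood at 284 RPKM against 91.8 RPKM for COX7A, so COX7A would not lead if it were counted. In 38 families the lowest share of the top member over the 4 libraries was above the highest share of the second. The exception was the pair of ubiquitin precursors, where Ubi-p63E held 50.9, 46.7, 58.0 and 52.6% and Ubi-p5E the rest. The same listed member led all 39 families when the longest transcript or plain CPM was used in place of exon length.

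All 6 actin genes were read. Act79B, known from tubular muscles (3L, 21985210 to 21987190), led with 40.6, 44.4, 40.0 and 41.4% of the actin RPKM, and Act57B followed with 27.1, 23.1, 26.1 and 28.1%. Act87E held 12.4%, the flight muscle actin Act88F 11.2%, the cytoplasmic Act5C 8.21% and Act42A 0.577% on average. Act88F (3R, 15439969 to 15442177) stood at 420, 323, 411 and 367 CPM, below Act79B at 1534, 1468, 1332 and 1385 CPM in every library. These genes are nearly identical in their coding sequence, and the sources used here do not say how reads that match more than a single gene were assigned, so the split is uncertain.

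Troponin C went the other way. TpnC4, the isoform of stretch-activated flight muscle, held 79.4, 79.5, 81.1 and 81.0% and TpnC41C, of tubular muscle, 17.8, 17.8, 16.6 and 16.7%. TpnC25D, TpnC73F and TpnC47D held 1.88, 0.423 and 0.215%. Among the remaining sarcomere families Tm2 led the tropomyosins (82.7% ± 0.859), Mlc1 the essential light chains (95.01% ± 0.245) over the non-muscle Mlc-c, and Mlc2 the regulatory light chains (95.8% ± 0.178) over the non-muscle sqh. The muscle LIM proteins were shared, with 59.7% ± 1.14 for Mlp84B and 40.3% for Mlp60A. The share of Tm2 depended on the length used for Tm1: it was 66.3% with the longest transcript and 56.0% by CPM.

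In the metabolic families a single gene usually stood for the whole. Ald1, Pglym78, PyK (99.8%), Argk1 (99.2%), Gpdh1 (99.1%), Gpo1, sesB, porin (99.1%), Cyt-c-p, COX4, ATPsynbeta, SdhA and Fum1 (99.9%) each held at least 99% of their families. The paralogues Ald2, Gpo2, Gpo3, Cyt-c-d, COX4L, ATPsynbetaL, SdhAL, Fum2, Fum3 and Fum4 all stood under 0.5 CPM, and Pglym87 was at 0 in every library. Shared use was seen for Gapdh1 (73.6% ± 0.420) with Gapdh2, for the hexokinases Hex-A (80.5% ± 1.96) with Hex-C, and for the phosphate carriers Mpcp1 (67.1% ± 1.32) with Mpcp2. The mitochondrial malate dehydrogenase Mdh2 held 77.7% ± 1.15 beside the cytosolic Mdh1. The testis-expressed Hex-t1 and Hex-t2 were at 0.121 and 0.0531 CPM.

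Ribosomal protein pairs were mostly used through a single copy. In 7 of 10 pairs the top member held at least 99%: RpL10Ab, RpL22, RpL37a, RpS5a, RpS10b, RpS19a and RpS28b. RpL10Aa and RpS28a were at 0 in all 4 libraries, and RpL22-like had reads in replicate 4 only (0.0266 CPM). RpL34 was split between RpL34b (67.1% ± 1.58) and RpL34a, RpS14 between the near-identical RpS14a (56.4% ± 1.603) and RpS14b, and RpS15A mainly RpS15Aa (89.1% ± 0.510).

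Other housekeeping families were split more evenly. eEF1alpha1 held 79.5% ± 1.45 beside eEF1alpha2, the tubulins alphaTub84B 86.8% ± 0.198 beside the near-identical alphaTub84D, and betaTub56D 87.9% ± 0.632 beside betaTub97EF. The beta tubulin betaTub60D, at 9.60 CPM, has no length in the annotation and was left out of that share. Of the Hsc70 chaperones the cytosolic Hsc70-4 held 54.6% ± 1.24, the mitochondrial Hsc70-5 22.9%, Hsc70-1 11.99% and Hsc70-3 of the endoplasmic reticulum 10.4%. Shares of near-identical pairs are as uncertain as those of the actins.

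**Figure D3:**
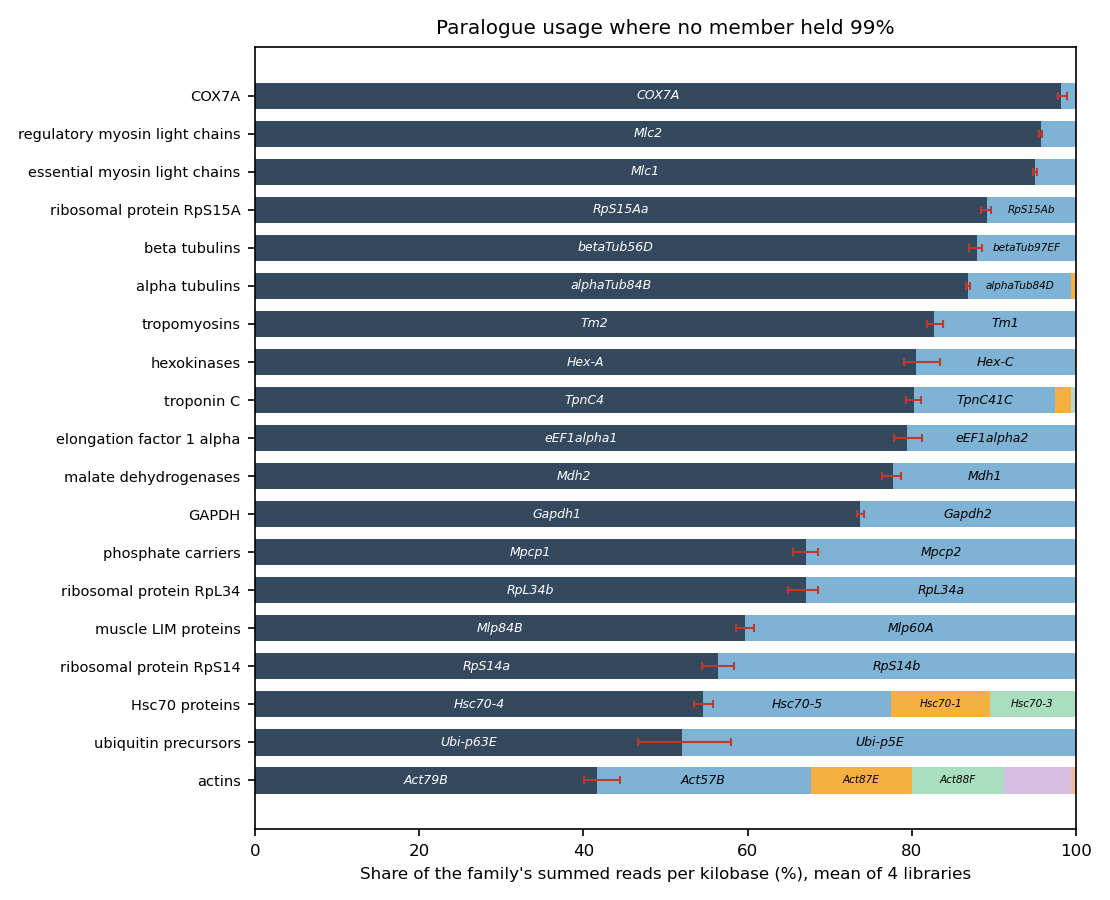
Mean share (%) of each member in the summed reads per kilobase of its family, for the 19 families in which no member held 99%. Bars are stacked from the largest member, and red whiskers give the lowest and highest share of the top member over the 4 control libraries. The actins and Hsc70 proteins are split among several genes, and the ubiquitin precursors are the pair closest to equal. The COX7A bar leaves out COX7AL2.

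The cell types of the thorax were read from marker genes. Markers of fibrillar flight muscle (5 of 5 at 1 CPM or more; summed level 3144 to 3767 CPM) and of tubular muscle (4 of 4; 1725 to 1930 CPM) were present, as the label thorax implies. Most of the fibrillar sum was Strn-Mlck (mean 1994 CPM). Most of the tubular sum was Act79B (mean 1430 CPM), whose reads are uncertain among the actins, while TpnC73F and TpnC47D averaged 5.21 and 1.985 CPM. Neuronal markers were all detected (12 of 12; 1123 to 1538 CPM), with the synaptotagmin Syt1 at 268, 247, 215 and 191 CPM and the sodium channel para at 260, 229, 200 and 199 CPM. Glial markers (8 of 8; 1360 to 1759 CPM) were led by the glutamine synthetase Gs2. Haemocyte (9 of 10; 1007 to 1197 CPM), tracheal (7 of 7; 188 to 264 CPM) and fat body markers (8 of 9; 5227 to 7432 CPM) were present too, with the haemocyte gene Hml at 347 to 426 CPM. Markers of epidermis (5 of 9; 230 to 434 CPM), oenocytes (4 of 6; 1154 to 4005 CPM) and heart with pericardial cells (3 of 4; 61.7 to 78.3 CPM) were found as well. The heart sum came mostly from svp (48.5 to 64.7 CPM), with means of 9.50 CPM for Sur, 3.71 for Hand and 0.214 for tin.

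Testis, accessory gland and ovary markers left little trace, while gut and Malpighian tubule markers were read mostly through a few genes. All 9 testis markers and all 7 accessory gland markers stood under 0.5 CPM. Of 9 ovary and eggshell markers, 5 had no read and the yolk proteins Yp1, Yp2 and Yp3 stood at 0.0800 to 2.20 CPM. Of 10 gut markers, 7 stood under 0.5 CPM, while the amylase Amy-p reached 44.6, 20.5, 34.3 and 29.7 CPM. The 6 Malpighian tubule markers summed to 117 CPM in replicate 1 and to 80.3 to 85.6 CPM in the others, mostly through Best2 (42.3 to 50.9 CPM) and NtR (30.2 to 35.1 CPM). In the flight muscle list the selector gene salm stood at 71.6, 30.5, 35.2 and 41.4 CPM, highest in replicate 1.

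Eye genes were nearly absent except in replicate 1. The 9 photoreceptor markers summed to 338 CPM there and to 1.31 to 1.72 CPM in replicates 2 to 4, and each of the 9 was highest in replicate 1. The main rhodopsin ninaE (FBgn0002940, 3R, 19886255 to 19888206) stood at 170, 0.140, 0.224 and 0.213 CPM. The arrestin Arr2 stood at 70.1, 0.240, 0.336 and 0.213 CPM. Arr1 (35.7 CPM), the channel gene trp (23.75 CPM), ninaC (15.8 CPM), Rh4 (9.61 CPM), chaoptin, chp (8.44 CPM), Rh3 (2.78 CPM) and Rh6 (2.20 CPM) followed in replicate 1, and each was under 0.5 CPM in the other 3. Replicate 1 also held Mur18B at 90.5 CPM, against at most 0.0400 CPM in the others. The Malpighian tubule genes Uro (10.8 CPM) and salt (3.47 CPM) showed the same pattern against at most 0.0533 CPM. The part of these reads in other values of replicate 1 was not tested.

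The spread between the 4 libraries was taken as the SD of log2(CPM + 0.5) over the 5915 protein-coding genes averaging 10 CPM or more. Its median was 0.149, with 0.0854 and 0.248 at the 10th and 90th percentile, while counting error alone would give a median of 0.0410. Much of it came from the shift of whole libraries: after each library was centred on its own median gene the median SD was 0.0943, and without replicate 1 it was 0.106. The largest and smallest library differed by less than 1.5-fold in 91.5% of the genes and by more than 2-fold in 118 genes (1.99%), and 16 genes had an SD over 1. Without centring, the median barely changed with level, at 0.151 for 10 to 30 CPM and 0.133 above 1000 CPM. Counting error fell from 0.0586 to 0.00592 over the same range. The shift of whole libraries adds to this median at every level. The common biological coefficient of variation from edgeR with TMM scaling was 0.114 over 9522 genes. Fitted along level, this coefficient did change: it was 0.1515 at 1 CPM, 0.0966 at 16, 0.111 at 64 and 0.147 at 1024 CPM.

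Gene groups differed in spread. After centring, the median SD was 0.0382 for glycolysis, 0.0528 for complex I, 0.0543 for the TCA cycle, 0.0762 for the sarcomere and 0.0791 for cytosolic ribosomal proteins, against 0.0943 for all genes. It was 0.501 for mitochondrial mRNAs, 0.245 for heat shock proteins, 0.232 for clock genes, 0.207 for cuticle genes and 0.183 for immune effectors. Centring lowers replicate 1, where mitochondrial mRNAs were already lowest, so it widened their median SD from 0.385. Calcium handling (0.0966), trehalose and glycogen (0.102) and lipid handling (0.107) lay just above the value for all genes, while tubulins (0.0771) and the proteasome (0.0777) were close to the sarcomere. Within a group of low spread single genes still stood apart: RpL22 was at 142, 118, 137 and 37.0 CPM, low in replicate 4 only (SD 0.92, 377 of its exon bases shared with other genes).

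**Figure D4:**
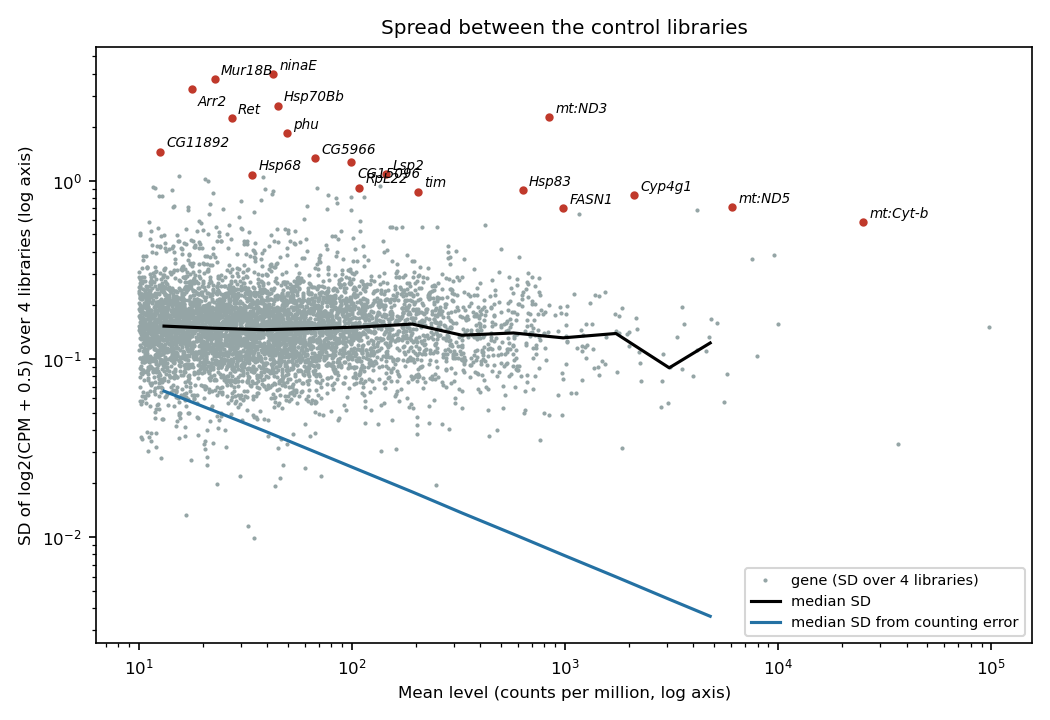
SD of log2(CPM + 0.5) over the 4 control libraries against mean level (both axes log), for the 5915 protein-coding genes averaging 10 CPM or more. The black line is the median SD and the blue line the median expected from counting error. The median SD stays near 0.15 as the counting line falls, and ninaE, Mur18B, Arr2, Hsp70Bb and mt:ND3 stand highest.

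The largest spreads went to genes with different patterns over the libraries. After the replicate 1 genes ninaE, Mur18B and Arr2 came the inducible chaperone Hsp70Bb at 111, 1.34, 56.3 and 10.3 CPM (SD 2.65) and mt:ND3. The receptor tyrosine kinase gene Ret stood at 66.3, 3.16, 37.0 and 2.82 CPM (SD 2.24), high in replicates 1 and 3. phu, a phytase gene, stood at 124, 39.9, 5.04 and 28.5 CPM (SD 1.86). CG5966 was highest in replicate 3 (19.3, 28.4, 167 and 52.6 CPM) and CG15096 lowest there (137, 180, 25.1 and 55.9 CPM). Lsp2, a larval storage protein still read in adults, stood at 334, 95.9, 56.5 and 92.7 CPM, with 2096 of its exon bases shared with other genes. CG11892, Hsp68, CG15369, CG30008 and the glycine methyltransferase Gnmt completed the 15, of which 9 remained among the 15 most variable without replicate 1.

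Of the 60 genes with the largest spread, 32 were highest in replicate 1, a smaller part than the 79.3% of all 5915 genes. In replicate 3, 31 of the 60 were lowest, and the share over all genes was not taken for this count or the next. A group of 9 was lowest in replicate 3 and highest in replicate 4. Cyp4g1 belonged to it (X, 467057 to 469335) at 2069, 2054, 864 and 3469 CPM, as did the fatty acid synthase FASN2 at 72.7, 85.9, 36.3 and 141 CPM. Both are used by oenocytes, the cells that make cuticular hydrocarbons. The oenocyte markers summed to 2536, 2465, 1154 and 4005 CPM, and all 4 markers that reached 1 CPM were lowest in replicate 3. FASN1 shared the low value of replicate 3 but not the high value of replicate 4 (1101, 1506, 478 and 830 CPM).

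Heat-inducible chaperones shared a low replicate 2 but not their highest library. All 9 that reached 1 CPM were lowest in replicate 2, and the list summed to 712, 275, 1179 and 841 CPM. Of the 9, 5 were highest in replicate 4, 3 in replicate 3 and 1 in replicate 1. Hsp83, the fly HSP90, stood at 534, 243, 1031 and 720 CPM (3L, 3192969 to 3197059). Hsp68 stood at 33.0, 9.38, 39.3 and 54.6 CPM and Hsp26 at 17.3, 11.6, 23.9 and 27.1 CPM. Hsp22 was listed at 0. The Hsp70 genes are near-identical copies, so their split is uncertain. Hsp70Bc, at 1.44, 0.520, 4.18 and 3.65 CPM, was highest in replicate 3, where Hsp70Bb was highest in replicate 1. On the scale of nuclear reads 8 of the 9 were lowest in replicate 2.

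Clock genes were higher in replicates 1 and 2 than in replicates 3 and 4 for several members. tim stood at 320, 280, 97.4 and 116 CPM, cwo at 145, 91.0, 43.6 and 58.8 CPM and per at 22.3, 23.4, 13.1 and 12.9 CPM. Clk went otherwise, at 24.0, 13.4, 18.6 and 16.2 CPM, and cry was highest in replicate 3 (63.6, 53.7, 78.2 and 63.5 CPM). The list of 9 summed to 1868, 1444, 1089 and 1046 CPM. Genes of antimicrobial peptides split as well. BomS2 was highest in replicate 4, at 157, 166, 183 and 214 CPM. DptA was highest in replicate 1 and lowest in replicate 4, at 5.46, 2.68, 1.27 and 0.133 CPM. DptB was at 1.55, 4.78, 9.67 and 0.400 CPM. The antimicrobial list summed to 635, 592, 750 and 736 CPM and the list of 10 fasting-responsive genes to 500, 621, 394 and 425 CPM. Thor, the translational repressor 4E-BP, was highest in replicate 2 at 137, 261, 110 and 133 CPM.

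At the other end, 88 of the 5915 genes varied by less than the SD expected from counting alone. An SD from so few libraries falls low by chance for some genes, so these need not be steadier than others. SamDC, which makes the aminopropyl donor for polyamines, stood at 34.7, 35.1, 34.98 and 34.5 CPM (SD 0.0099). La, an RNA-binding protein gene, stood at 32.7, 32.1, 32.7 and 32.3 CPM. mab-21, Tsp42Eg, CG15098, CG18549, Vha36-3, the calpain CalpA, the neuropeptide genes Capa and Orcokinin, CG14401, tsl, Coq7 of ubiquinone synthesis, CG11975 and RagA-B, a GTPase of the TORC1 pathway, made up the other 13 of the 15 steadiest. CG15098 was the highest of them at 249, 246, 253 and 245 CPM. As these levels are relative to all reads, a gene that did not vary here stayed level against a total that includes the shifting mitochondrial reads.

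**Figure D5:**
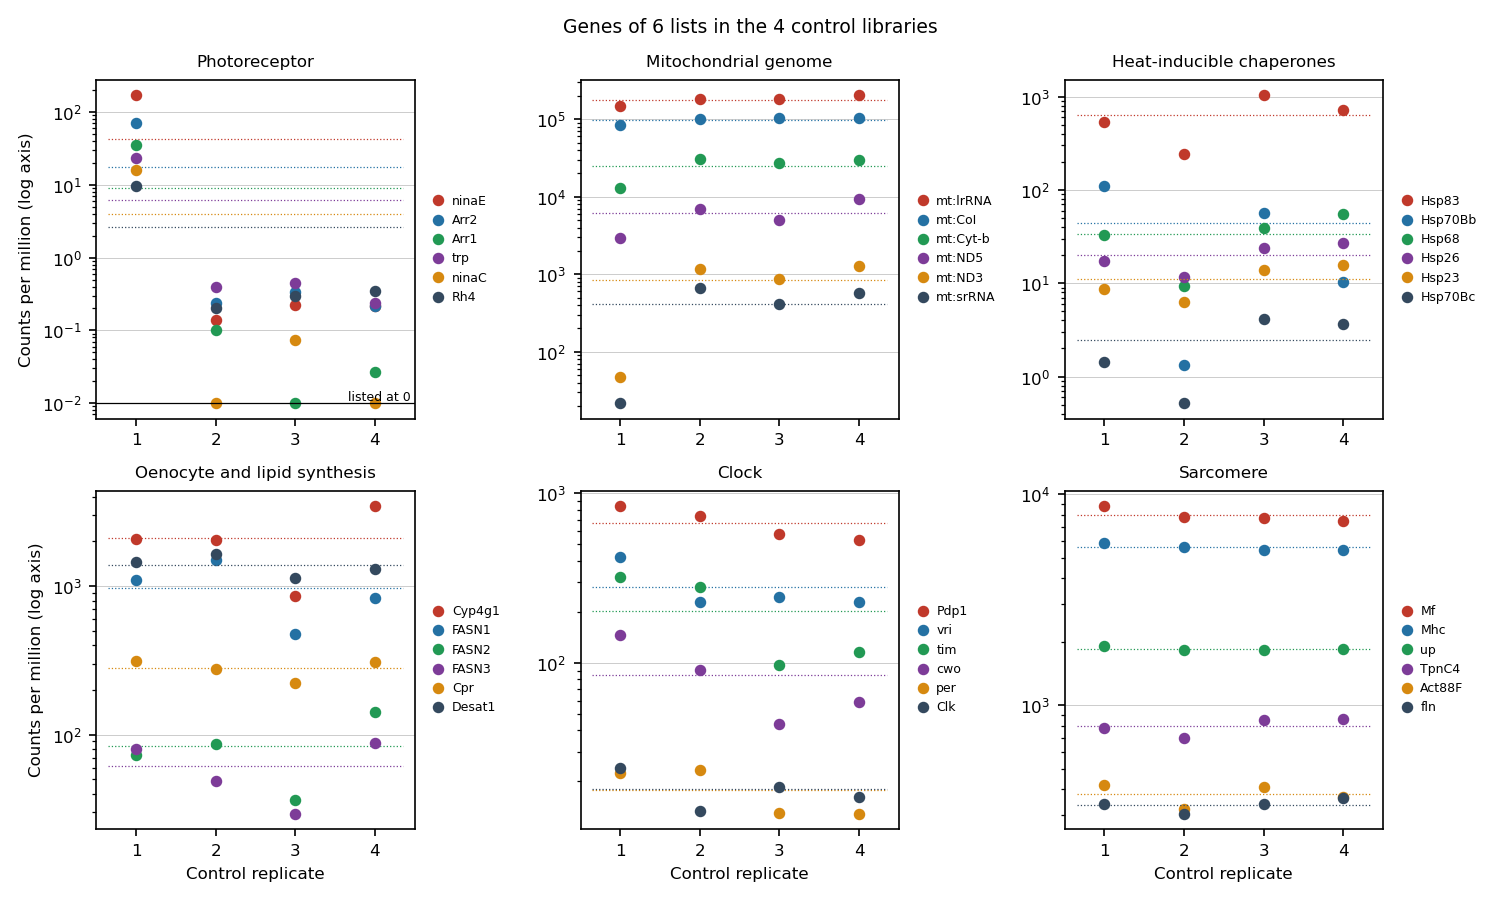
Levels (CPM, log axis) of 6 genes from each of 6 groups in control replicates 1 to 4. Points are single libraries and dotted lines the mean of the 4, and genes at 0 are drawn on the line marked as listed at 0. Photoreceptor genes appear in replicate 1 (ninaE 170 CPM), mt:ND3 and mt:srRNA drop there, chaperones are low in replicate 2, oenocyte genes in replicate 3, and the sarcomere genes are nearly flat.

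Between libraries, the log2 levels of the 5915 genes correlated with Pearson coefficients of 0.983 to 0.994, highest between replicates 3 and 4 and lowest between replicates 1 and 3. These coefficients are across genes, which are not independent replicates. For every pair of libraries the chi-square statistic over genes was 28.3 to 148 times its degrees of freedom, so no pair agreed within counting noise as a library deposited again would. This does not show that the samples were independent.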

How the data were processed

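The study's methods describe oligo-dT capture of mRNA with a KAPA kit, single-read sequencing of 4 pools and alignment by the authors with STAR to the FlyBase genome. The labels instead name a TruSeq kit and mm10, a mouse build that fly reads cannot come from. The submitters' processing notes also name FastQC, MultiQC and DESeq2. The sources used here do not name the counting tool, its strand setting or its treatment of multi-mapping reads.

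The deposited values were estimated counts, not scaled for depth by the authors. All were multiples of 0.25 (within 1e-06), so they were multiplied by 4 and used as reads on the reading that each is a mean over 4 pools. 1 row that names no gene held 0 reads and was left out. CPM used the library total. Coordinates and exon lengths came from the Ensembl BDGP6.54 annotation (17506 identifiers matched).

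No groups were compared. Within the controls, libraries far from the others were sought by Dixon's criterion, and pairs of libraries were compared by a chi-square statistic over genes. Spread used log2(CPM + 0.5) for protein-coding genes averaging 10 CPM or more. The coefficient of variation came from edgeR 4.0.16 (limma 3.58.1, R 4.3.3) after filterByExpr (10 reads per library, 15 in total), and was tested on simulated data. Python 3.11.15 did the rest. Alternatives were the scaling (TMM, DESeq2 1.42.0, nuclear total), filters, pseudocount, length, shared exons and each library left out.

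Named genes were the 30 highest by mean CPM, members of described paralogue families, the 15 most and 15 least variable, up to 6 of each function list, and marker and spread list members. Others named were chosen after their values were seen. The lists (34 of function, 16 of markers, 39 of paralogues, 7 of spread; all 600 symbols matched) came from textbook knowledge. The libraries and lists were chosen with earlier results of these data known.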

Additional observations from a re-analysis of the deposited data

Results flagged for a closer look

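Within the 4 control libraries, 153 sums and genes were looked at, and 21 had a library far from the other 3. In 20 of the 21 that library was replicate 1. Chance alone sets a library apart in about 1 of 20 groups, but that rate does not apply to this tally, since the genes looked at include the most variable ones and the photoreceptor markers already seen to be high in replicate 1.

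The photoreceptor markers summed to 338 CPM in replicate 1 against 1.31 to 1.72 CPM in the others. Each of the 9 markers was set apart too: ninaE (170 CPM), Arr2 (70.1 CPM), Arr1 (35.7 CPM), trp (23.75 CPM), ninaC (15.8 CPM), Rh4 (9.61 CPM), chp (8.44 CPM), Rh3 (2.78 CPM) and Rh6 (2.20 CPM). The source of these reads was not tested.

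The Malpighian tubule markers summed to 117 CPM in replicate 1 against 80.3 to 85.6 CPM, with Irk3 at 12.7 CPM, Uro at 10.8 CPM and salt at 3.47 CPM there. Mur18B (90.5 CPM), CG11892 (36.6 CPM) and the storage protein gene Lsp2 (334 CPM) were also apart in replicate 1.

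Nuclear ATP synthase genes held 1.41% of all reads in replicate 1 against 1.17 to 1.21%, but were not apart as a share of nuclear reads. Cuticle and chitin genes were apart in replicate 1 on both scales, at 0.0479% of all reads against 0.0348 to 0.0367% and at 0.0689% of nuclear reads against 0.0588 to 0.0602%. Odorant and pheromone binding proteins were apart in replicate 2, at 0.2425% of nuclear reads against 0.276 to 0.283%.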

How the results depend on the processing

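All values followed here are shares, counts or measures of spread, which cannot change sign. Of the alternative values for the main results, 58 stayed within the spread between libraries or within 1.5 times the count and 19 moved further. The 58 include the function shares with a replicate left out. Those were bound to stay, since leaving a library out shifts a mean by less than the SD, so the tally does not measure stability. With the nuclear total in place of all reads, the sarcomere share went from 4.59 to 7.37%, nuclear oxidative phosphorylation from 3.49 to 5.60%, glycolysis from 1.25 to 2.01%, the TCA cycle from 2.05 to 3.28%, ribosomal proteins from 3.15 to 5.06% and the top 10 genes from 38.4 to 8.07%. Genes that share any exon base held 25.8% of the reads and were dropped whole. Without them, as shares of the reads left, the mitochondrial genome took 43.9% and oxidative phosphorylation 2.72%. Glycolysis took 0.637%, the TCA cycle 0.989% and ribosomal proteins 2.79% on that smaller total. Ranking by RPKM kept 18 of the 30 highest genes. The median SD of 0.149 became 0.0937 with TMM, 0.0940 with DESeq2 size factors, and 0.106 to 0.169 with a replicate left out. The biological coefficient of variation of 0.114 became 0.142 when scaled by the library total, 0.150 with no filter, and 0.107 to 0.122 with a replicate left out. Leaving out a replicate gave 36.1 to 40.0% for the mitochondrial genome and 8895 to 9000 genes at 1 CPM. Of 114 alternative paralogue shares 21 moved, 14 of them by CPM with no length and 7 with the longest transcript, and the leading member never changed. Those with a replicate left out were likewise bound to stay, so only the changes of length could move a share. No paired analysis was possible because only the control group was used.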
